A study of Schizosaccharomyces pombe with 5 samples.

Results

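The 8 genes described here encode the cytosolic translation elongation factors of fission yeast (Schizosaccharomyces pombe): tef101, tef102 and tef103 for EF-1 alpha, tef5 for EF-1 beta, eft201 and eft202 for EF-2, tef3 for eEF3, and tif51 for eIF5A. They were taken by systematic identifier, not by a cutoff on their values, from the 6727 genes of the count files. The choice was made with earlier results of these data known. All 8 passed the filter on low counts. The study measured RNA immunoprecipitated with Slr1p, the homolog of LARP1 in this yeast, by sequencing (RIP-seq). All 5 libraries came from wild-type strain yAS99, grown in YES, a rich medium, at 32 °C and cross-linked with formaldehyde. Of these, 2 were Slr1p immunoprecipitations (Slr1p IP, antibody AB2756), 2 were inputs of total RNA extracted with hot phenol, and 1 was an immunoprecipitation with non-immune rabbit IgG, which had no replicate. The antibody was used on the wild-type strain alone, no cells lacking Slr1p enter the comparisons, and every comparison with IgG rests on that single library.

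Translation elongation runs as a cycle on the ribosome. EF-1 alpha, loaded with GTP, brings each aminoacyl-tRNA to the ribosome, EF-1 beta reloads EF-1 alpha by exchanging its nucleotide, EF-2 moves the ribosome along the mRNA, eEF3 is an ATPase that fungal ribosomes need in addition, and eIF5A, which carries the modified lysine hypusine, helps at stretches that are slow to translate, such as runs of proline. In mammals the mRNAs of EF-1 alpha and EF-2 belong to the TOP mRNAs, whose 5′ end is a cap followed by a run of pyrimidines (the 5′ terminal oligopyrimidine motif) and which the RNA-binding protein LARP1 recognises.

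Totals ran from 62802923 to 65859940 gene counts among the 4 replicated libraries, against 12882920 for IgG. The 8 genes together took 1.69% and 2.00% of the counts in the input libraries (95% Wilson intervals 1.686 to 1.693% and 2.000 to 2.007%). Their share was 2.88% and 3.01% in the Slr1p libraries (2.877 to 2.885% and 3.006 to 3.014%) and 2.86% in IgG (2.849 to 2.868%). Both immunoprecipitated groups thus held a larger share of elongation factor reads than either input library. The intervals cover counting error only, since PCR copies of a molecule cannot be told from separate ones. The IgG library stood apart in how counts related to transcript length, with values given below. The mRNA of slr1 itself was far less abundant than any of the 8, at 79.4 and 99.5 CPM (counts per 1000000, scaled by TMM) in input, 130.0 and 133.6 in Slr1p IP, and 123.6 in IgG.

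Of the 8 genes, 5 have near-identical copies among the others, which limits how reads could be assigned. In the RefSeq annotation of assembly ASM294v3, the coding sequences of tef101 and tef102 differed at 16 of 1383 aligned bases, tef101 and tef103 at 19, and tef102 and tef103 at 15. The tef102 and tef103 proteins were identical over all 460 residues, and tef101 differed from each at 1 residue. The coding sequences of eft201 and eft202 differed at 11 of 2529 bases and encoded the same 842 residues. Of the 50-base sequences of each transcript, the length of a read, the share found nowhere else in the genome, on either strand, was 34.4% for tef101, 24.9% for tef102, 27.7% for tef103, 15.1% for eft201 and 15.6% for eft202. It was 100% for tef5, tef3 and tif51. The tef102 transcript was annotated as partial, with 0 bases after the coding region, against 142 in tef101 and 102 in tef103. Its length, unique share, level per kb and share of family counts may thus not be strictly comparable with those of its copies. How the authors treated reads that map to several genes is not given in the sources used here, so the separate values of these 5 genes are uncertain, and sums over the EF-1 alpha and EF-2 genes are given beside them. If such reads were dropped, the sums would miss them too.

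**Figure D1:**
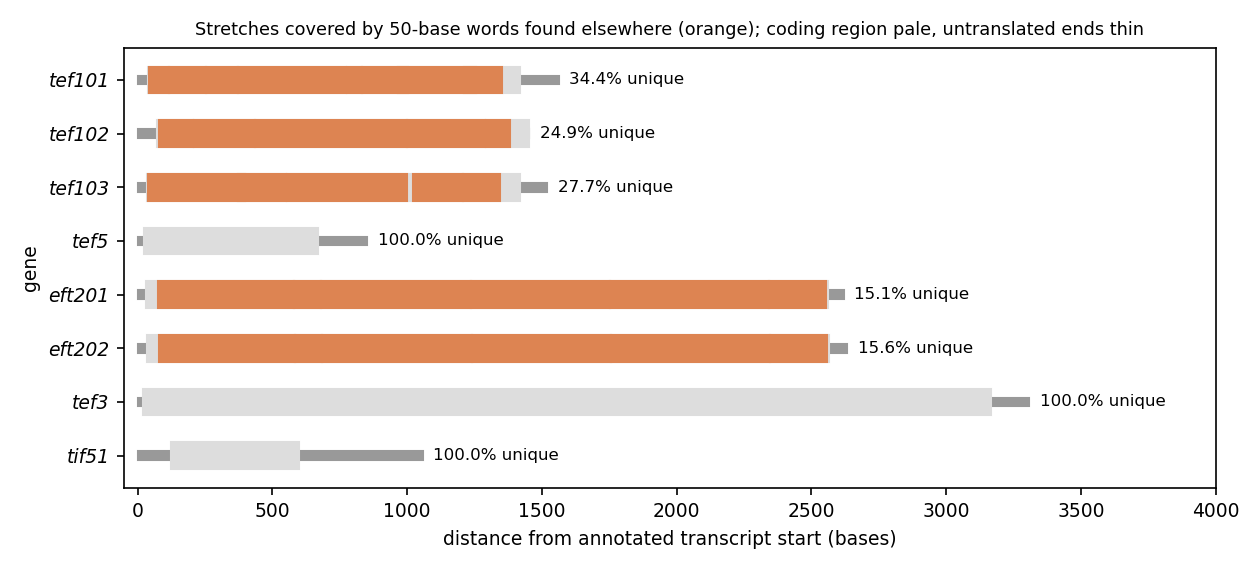
Annotated transcripts of the 8 elongation factor genes drawn to scale from the transcript start (x axis, bases), with the coding region as a pale bar, untranslated ends as thin bars, and in orange the stretches covered by 50-base sequences that also occur elsewhere in the genome. The orange stretches fill most of the coding region in the EF-1 alpha and EF-2 genes and are missing from tef5, tef3 and tif51, with the unique share printed beside each gene.

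The annotated 5′ ends were examined because the study concerns TOP-like mRNAs. Each line below gives 30 bases, from 10 bases before the annotated transcript start to 20 bases of the transcript, read 5′ to 3′ on the gene's own strand. The transcript's first base is the 11th of the line, and capitals mark the unbroken pyrimidine run that ends just before it. They were read from the RefSeq genome sequence at chrIII:269497-269526 for tef101 (minus strand), chrI:4095122-4095151 for tef102 (plus), chrII:627503-627532 for tef103 (minus), chrIII:1732741-1732770 for tef5 (plus), chrI:2910242-2910271 for eft201 (minus), chrIII:537280-537309 for eft202 (plus), chrIII:1685635-1685664 for tef3 (plus) and chrI:4142318-4142347 for tif51 (minus) of ASM294v3.
tef101: cttcgCCTTTgtcattcaccacacgccaaa
tef102: CCTCTTCTTTgtctgcaacaccgtaagcca
tef103: gcttctaCCTagagtctgtttcatcgaact
tef5: aaaaTTTTCTgccaacaaccaactacttta
eft201: aaattgTTTCgtccgccactgacatttaaa
eft202: atttataaCTagaaccaaccacgcacaaaa
tef3: ccgctcaTCTaccaacaaccatttccccgg
tif51: aacgtaaTCCagtattaaaacctatcctgt

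None of the 8 annotated transcripts (0 of 8) began with 5 or more pyrimidines in a row from base 1, 2 or 3, against 471 of 4482 nuclear protein-coding genes with an annotated leader (10.5%). In all 8, the annotated first base was a purine preceded by a pyrimidine, as it was in 93.9% of those 4482 genes. A run of at least 5 pyrimidines ended just before the annotated start in 3 of the 8, with at least 10 bases in tef102, where it filled the window, 6 in tef5 and 5 in tef101, against 22.7% of all such genes. That feature was chosen after the sequences had been seen. The 5′ untranslated leaders were 21 bases in tef3, 23 in tef5, 32 in eft201, 34 in tef103, 36 in eft202, 37 in tef101, 70 in tef102 and 124 in tif51, against a median of 99 over all such genes. These counts depend on where the annotation places the first base, which the count files do not test.

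Levels in input, as CPM divided by transcript length in kilobases, placed all 8 genes well above the median of the genes tested. Over 6263 genes with a known length, noncoding ones among them, the median level was 15.9 CPM per kb. Ranks among mRNAs alone were not made. The mRNA of tef5 was highest, at 4916 ± 1007 CPM per kb (SD, n = 2), rank 51 of 6263. The EF-1 alpha genes tef103 and tef101 followed at 2231 ± 335 and 1848 ± 343, and their input libraries overlapped. Then came tif51 at 1458 ± 47.7, tef3 at 1249 ± 130 and tef102 at 945 ± 157, with no overlap between neighbours in this order. The EF-2 genes were lowest, eft202 at 267 ± 15.9 and eft201 at 192 ± 13.2, ranks 466 and 606. This order depends on the assumption that reads were counted over the whole transcript, and tef102 is annotated without a 3′ untranslated end. Per kilobase of sequence found nowhere else in the genome, tef103 came first at 8326 ± 1251 CPM, with eft202 at 1750 ± 104, eft201 at 1298 ± 89.3 and tef3 at 1268 ± 132, and the input libraries of eft201 and tef3 overlapped.

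**Figure D2:**
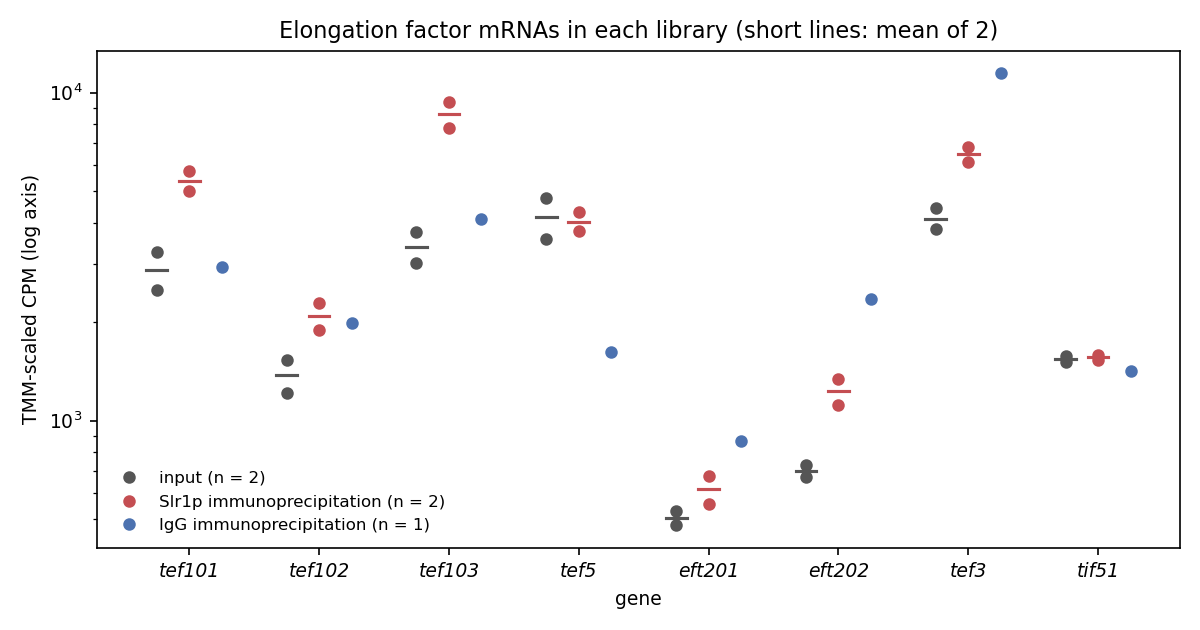
Level of each of the 8 elongation factor mRNAs in every library (y axis, TMM-scaled CPM, log axis), with a short line at the mean of each pair of libraries. The Slr1p points lie above the input points for tef101, tef102, tef103, eft201, eft202 and tef3. The IgG point is the highest for eft201, eft202 and tef3 and the lowest for tef5 and tif51. The share of all genes whose points separate in these ways is not given here.

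The comparison of Slr1p IP with input asked which of these mRNAs were at a higher or lower level in the Slr1p libraries than in total RNA. By itself it cannot tell RNA brought down with Slr1p from RNA that also comes down with non-immune IgG. Of the 8, 5 were higher in Slr1p IP and 0 lower by edgeR's quasi-likelihood test (adjusted p under 0.05), and 0 were lower at an unadjusted p under 0.05 or by DESeq2. Over all 6376 genes tested, 35% were higher and 34.2% lower (69.2% in either direction). Without Slr1p replicate 1 the test called 3 of the 8 higher, and without Slr1p replicate 2 it called 1, tef103. Those fits had 1 residual degree of freedom each, and the shares of all genes called in them are not given here. In the main fit the median log2 fold change (log2 ratio) of the 8 was 0.63, against 0.035 over all genes tested. It was 0.015 over tef3, tef5 and tif51, the 3 genes that share no read-length sequence with another. The same counts against IgG, where 34% of all genes were higher and 32.3% lower (66.3% in either direction), were 3 higher and 3 lower, with a median of 0.10 against 0.072 over all genes. In IgG against input, where 34.1% of all genes were higher and 36.5% lower (70.6% in either direction), 3 were higher and 1 lower, with a median of 0.41 against -0.064. The 3 comparisons share libraries pairwise and are not independent of each other.

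**Figure D3:**
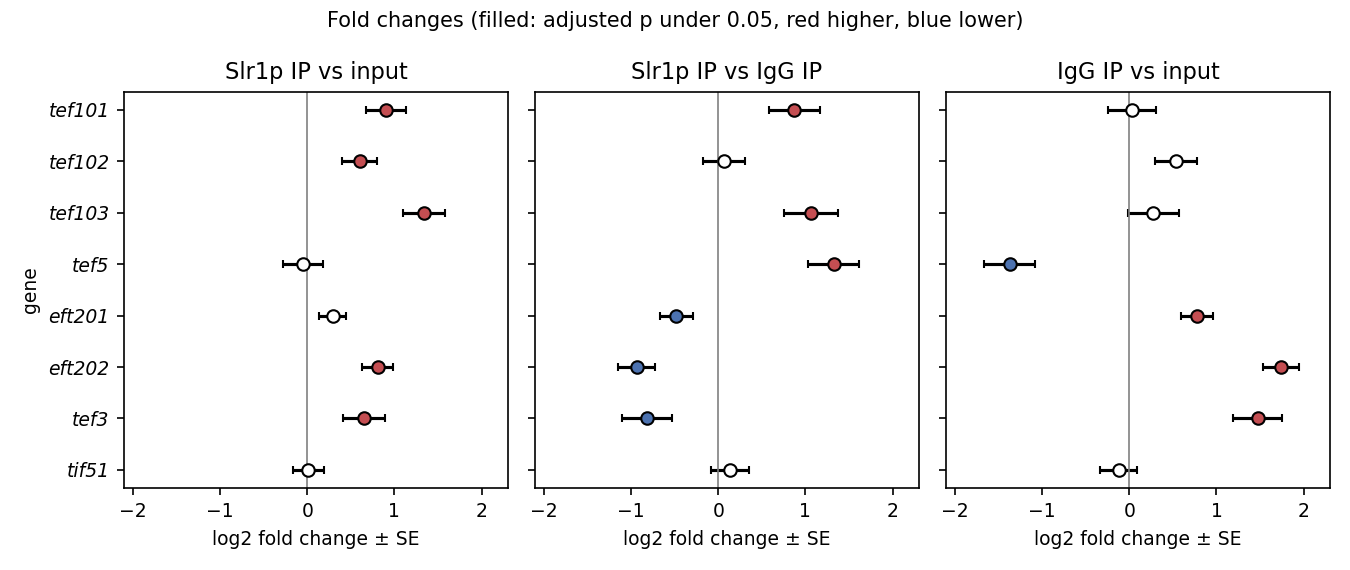
Log2 fold change ± SE of each elongation factor gene (x axis) in the 3 comparisons, from edgeR, with filled points where the adjusted p was under 0.05 (red higher, blue lower). The 3 EF-1 alpha genes are all filled red against input, whereas eft201, eft202 and tef3 are filled blue against IgG and red in IgG against input.

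EF-1 alpha, the carrier of aminoacyl-tRNA, gave the highest fold change of the 8 against input. The mRNA of tef103 (SPBC839.15c) stood at 3029 and 3749 CPM in the input libraries, 7812 and 9388 in Slr1p IP, and 4105 in IgG. Both Slr1p libraries were above all 3 others. The mean rose from 3389 ± 509 CPM in input to 8599.9 ± 1114 CPM in Slr1p IP (SD, n = 2 each), for a log2 ratio of 1.34 (SE 0.24, edgeR adjusted p = 1.40e-04), rank 386 of 6376 genes. The call was made in each of the 4 fits that left out 1 replicated library. The log2 ratio to IgG was 1.07 (SE 0.31, adjusted p = 0.00631), which was not called when Slr1p replicate 2 was left out (0.91, adjusted p = 0.0853). From input to IgG it was 0.28 and not called (SE 0.29, adjusted p = 0.405), but it was called with library totals in place of TMM (0.39, adjusted p = 0.0337) and with the trends with length, GC content and abundance taken out (0.61, adjusted p = 0.00652).

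The mRNA of tef101 (SPCC794.09c) stood at 2508 and 3266 CPM in input, 4998 and 5788 in Slr1p IP, and 2944 in IgG. The IgG level lay between those of the input libraries, and both Slr1p libraries were above all 3. The log2 ratio was 0.90 against input (SE 0.23, edgeR adjusted p = 0.00238) and 0.87 against IgG (SE 0.29, adjusted p = 0.0144). It was 0.028 in IgG against input (SE 0.28, adjusted p = 0.933). Without Slr1p replicate 2 neither call was made, at 0.78 against input (adjusted p = 0.0657) and 0.75 against IgG (adjusted p = 0.146). The call against IgG was also lost without Slr1p replicate 1, at 0.95 (adjusted p = 0.0620).

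For tef102 (SPAC23A1.10) the levels were 1212 and 1534 CPM in input, 1885 and 2282 in Slr1p IP, and 1988 in IgG, so that the IgG library fell between the Slr1p libraries and above both inputs. Its level was higher in Slr1p IP than in input by a log2 ratio of 0.60 (SE 0.20, edgeR adjusted p = 0.0132). Leaving out Slr1p replicate 1 (0.71, adjusted p = 0.0644) or replicate 2 (0.45, adjusted p = 0.262) ended that call. Against IgG the log2 ratio was 0.068 (SE 0.24, adjusted p = 0.816, 95% interval -0.45 to 0.58). In IgG against input it was 0.53 (SE 0.24, adjusted p = 0.0555), and without input replicate 2 it was called, at 0.71 (adjusted p = 0.00739). It was also called by DESeq2 (0.55, adjusted p = 0.00662), with library totals (0.64, adjusted p = 5.64e-04), and with the trend over length and GC content taken out, without abundance (0.46, adjusted p = 0.0289) or with it (0.54, adjusted p = 0.00772). Of the 3 EF-1 alpha genes it was thus the only one whose level in IgG exceeded that in a Slr1p library.

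Summed over the 3 genes, EF-1 alpha counts do not depend on how reads were divided among the copies. The sum was higher in Slr1p IP than in input by a log2 ratio of 1.07 (SE 0.27, edgeR adjusted p = 0.00248), a call not made when Slr1p replicate 2 was left out (0.94, adjusted p = 0.0508). Against IgG it was 0.83 (SE 0.34, adjusted p = 0.0434), a call lost in each fit without 1 of the 4 replicated libraries (0.69 to 0.92). With the trends of each library with transcript length, GC content and abundance removed it was 0.11 against IgG (adjusted p = 0.657). With the same trends removed, tef101 and tef103 were each still called against IgG, at 0.50 and 0.55 (adjusted p = 0.0402 and 0.0212), with tef102 at -0.0025. In IgG against input the sum was at 0.24 (SE 0.33, adjusted p = 0.519).

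In the division of EF-1 alpha reads among the 3 genes, the Slr1p libraries did not overlap the input libraries for any of the 3. The share of tef103 was 44.9% and 43.9% in input, 53.2% and 53.8% in Slr1p IP, and 45.4% in IgG. The share of tef102 was 18.0% and 17.9% in input, 12.8% and 13.1% in Slr1p IP, and 22.0% in IgG. For tef101 it was 37.2% and 38.2%, 34.0% and 33.2%, and 32.6%. The 2 libraries of a group lay close together in every case. The ratio of tef103 to tef102 counts was 2.50 and 2.44 in input, 4.14 and 4.11 in Slr1p IP, and 2.07 in IgG. The 95% Wilson intervals of these EF-1 alpha shares were narrow, the widest being 45.2 to 45.7% for tef103 in IgG. An exact permutation test of 2 libraries against 2 can give no two-sided p below 0.333, so these shares are a description. An antisense noncoding RNA annotated over 882 bases of tef102 had 6 to 124 counts per library, and another over 325 bases of tef103 had 10 to 168, against at least 27372 counts for either gene.

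**Figure D4:**
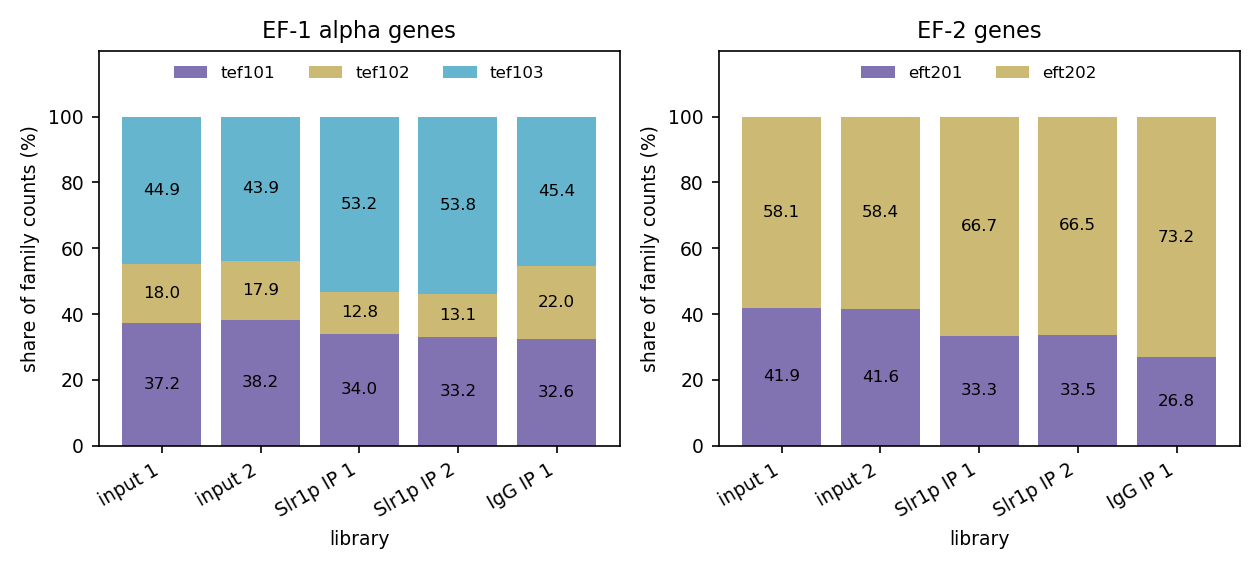
Share of EF-1 alpha reads from tef101, tef102 and tef103 (left) and of EF-2 reads from eft201 and eft202 (right) in each library (y axis, percent of the family's counts). The tef103 share is larger in the Slr1p libraries (53.2% and 53.8%) than in input or IgG, and the eft202 share steps up from input (58.1% and 58.4%) to Slr1p IP (66.7% and 66.5%) to IgG (73.2%).

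EF-1 beta, the nucleotide exchange factor of EF-1 alpha, was not called against input and was higher in Slr1p IP than in IgG. The mRNA of tef5 (SPCC1450.04) stood at 4784 and 3573 CPM in input, 3773 and 4314 in Slr1p IP, and 1615 in IgG. The Slr1p libraries lay between the inputs, and IgG was below all 4. Against input the log2 ratio was -0.047 (SE 0.23, edgeR adjusted p = 0.862), with a 95% interval of -0.53 to 0.43. Against IgG the level was higher in Slr1p IP, by 1.32 (SE 0.29, adjusted p = 9.83e-04), called in each of the 4 fits that left out 1 replicated library and, among the 8 genes, the highest value of that comparison. The IgG level was below input, at -1.37 (SE 0.29, adjusted p = 6.33e-04). With the trend with length and GC content taken out, tef5 was still called higher than IgG, at 0.81 (adjusted p = 0.00239). With abundance taken out as well, the log2 ratio against IgG was 0.29 (adjusted p = 0.117) and that against input was called at -0.30 (adjusted p = 0.0347). The IgG level stayed below input in both fits, at -0.94 and -0.59 (adjusted p = 4.22e-04 and 0.00344).

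EF-2, the translocase, was lower in Slr1p IP than in IgG, the opposite direction to EF-1 beta. The mRNA of eft202 (SPCP31B10.07) stood at 733 and 674 CPM in input, 1118 and 1343 in Slr1p IP, and 2355 in IgG. All Slr1p values were above input and below IgG. Its level was higher in Slr1p IP than in input, by a log2 ratio of 0.81 (SE 0.18, edgeR adjusted p = 7.72e-04), not called when Slr1p replicate 2 was left out (0.66, adjusted p = 0.0721). Against IgG it was lower in Slr1p IP, at -0.94 (SE 0.21, adjusted p = 0.00104), a call that ended when Slr1p replicate 1 was left out (-0.84, adjusted p = 0.0525). The level in IgG exceeded that in input by a log2 ratio of 1.74 (SE 0.21, adjusted p = 1.83e-06), the highest of the 8 genes there.

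The copy eft201 (SPAC513.01c) was at 528 and 479 CPM in input, 558 and 678 in Slr1p IP, and 863 in IgG. The groups were ordered as for eft202, with smaller differences between them. Its log2 ratio against input was 0.29 and not called (SE 0.16, edgeR adjusted p = 0.105, 95% interval -0.038 to 0.63). It was called at 0.36 without input replicate 1 (adjusted p = 0.0130), and at 0.42 (adjusted p = 0.00655) with the trend with length and GC content taken out. Against IgG it was lower, at -0.48 (SE 0.19, adjusted p = 0.0335), not called without Slr1p replicate 1 (-0.38, adjusted p = 0.353) or replicate 2 (-0.64, adjusted p = 0.10). The IgG level was above that of input, at 0.78 (SE 0.19, adjusted p = 0.00157), a call not made with the trend over length and GC content taken out (0.11, adjusted p = 0.539), or with abundance as well (0.21, adjusted p = 0.182).

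The EF-2 sum was higher in Slr1p IP than in input by a log2 ratio of 0.62 (SE 0.19, edgeR adjusted p = 0.00935), lost without Slr1p replicate 1 (0.72, adjusted p = 0.0644) and replicate 2 (0.47, adjusted p = 0.250). Against IgG it was lower, at -0.80 (SE 0.23, adjusted p = 0.00572), lost without Slr1p replicate 1 (-0.70, adjusted p = 0.133). The IgG level was above that of input, at 1.42 (SE 0.22, adjusted p = 3.91e-05). Within the family, eft202 took 58.1% and 58.4% of reads in input, 66.7% and 66.5% in Slr1p IP, and 73.2% in IgG, and the ratio of eft202 to eft201 counts was 1.39 and 1.41, 2.01 and 1.98, and 2.73. The eft202 share was thus above input in both kinds of immunoprecipitation, whereas the tef103 share of 45.4% in IgG lay close to input.

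The fungal factor eEF3 showed the same order of groups as EF-2. The mRNA of tef3 (SPCC417.08), which shares no read-length sequence with another gene, stood at 3828 and 4435 CPM in input, 6168 and 6852 in Slr1p IP, and 11458 in IgG. The 3 groups did not overlap, and IgG was highest. The log2 ratio was 0.66 against input (SE 0.24, edgeR adjusted p = 0.0233), called in none of the 4 fits without 1 library (0.55 to 0.77). Against IgG the level was lower, at -0.82 (SE 0.29, adjusted p = 0.0196), also lost without Slr1p replicate 1 (-0.77, adjusted p = 0.167) and replicate 2 (-0.91, adjusted p = 0.102). In IgG against input it was higher, at 1.47 (SE 0.28, adjusted p = 2.33e-04), but not called with the trend over length and GC content taken out (0.22, adjusted p = 0.299). With abundance taken out as well it was called, at 0.63 (adjusted p = 0.00222). The tef3 mRNA took 1.22% of all IgG counts, the largest share of a library for any of the 8 genes.

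The hypusine-bearing factor eIF5A showed the smallest spread of the 8 in CPM over the 5 libraries. The mRNA of tif51 (SPAC26H5.10c) stood at 1506 and 1577 CPM in input, 1526 and 1589 in Slr1p IP, and 1415 in IgG. The input and Slr1p libraries overlapped, with IgG just below them. None of its 3 comparisons passed edgeR's test in the main fit. The log2 ratio was 0.015 against input (95% interval -0.36 to 0.39, adjusted p = 0.945) and 0.14 against IgG (-0.32 to 0.60, adjusted p = 0.587). In IgG against input it was -0.12 (-0.58 to 0.34, adjusted p = 0.623). With the trend with length and GC content taken out, tif51 was called higher in IgG than in input, at 0.40 (adjusted p = 0.0318). With abundance taken out as well, that value was 0.85 (adjusted p = 2.01e-04). In that fit tif51 was lower in Slr1p IP than in IgG, at -0.93 (adjusted p = 2.06e-04). Its copy tif512 (SPBC336.10c), which encodes a protein identical at 153 of 157 residues, had a different profile, at 4370 ± 854 CPM in input, 5034 ± 636 in Slr1p IP (SD, n = 2 each) and 1689 in IgG. The coding sequences differed at 47 of 474 bases and shared no read-length sequence. The ratio of tif51 to tif512 counts was 0.303 and 0.419 in input, 0.333 and 0.290 in Slr1p IP, and 0.838 in IgG.

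The differences from IgG tended to go with transcript length, among the 8 genes and over the whole table, though not for every gene. The transcripts were 850 bases in tef5, 1057 in tif51, 1453 to 1562 in the EF-1 alpha genes, 2619 in eft201, 2633 in eft202 and 3307 in tef3. The 3 longest were the 3 that were lower in Slr1p IP than in IgG, and the shortest had the highest fold change. Spearman's rho of length with the log2 ratio against IgG was -0.79 over the 8 genes and -0.57 over 6263 genes, and in IgG against input it was 0.88 and 0.39. For Slr1p IP against input it was 0.52 over the 8 and -0.12 over all genes. The genes share libraries, and these values are given as a description. Over all genes the median log2 ratio against IgG went from 1.01 among the shortest transcripts (1254 genes of 75 to 905 bases) to -1.01 among the longest (1250 of 2587 to 15002 bases). For Slr1p IP against input these medians were 0.36 and 0.030.

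With each library's trend with length and GC content removed, 0 of the 8 were lower in Slr1p IP than in IgG by edgeR, and 1, tif51, was at an unadjusted p under 0.05. The log2 ratio against IgG was then 0.31 for eft201, -0.13 for eft202 and 0.37 for tef3, and that of the EF-2 sum was 0.0092 (edgeR adjusted p = 0.967). The genes tef101, tef103 and tef5 were still called higher, at 0.92, 1.07 and 0.81 (adjusted p = 0.00145, 4.72e-04 and 0.00239). In IgG against input eft202 was still called at 1.04 (adjusted p = 2.05e-05) and tef5 at -0.94 (adjusted p = 4.22e-04), while eft201 and tef3 were not. In the same comparison tef102 and tif51, not called in the main fit, were called higher at 0.46 and 0.40 (adjusted p = 0.0289 and 0.0318). The share of all genes called in that fit is not given here. For Slr1p IP against input the values were 1.07 for the EF-1 alpha sum (adjusted p = 4.21e-05) and 0.75 for the EF-2 sum (adjusted p = 1.38e-04). What set the length trend was not tested.

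**Figure D5:**
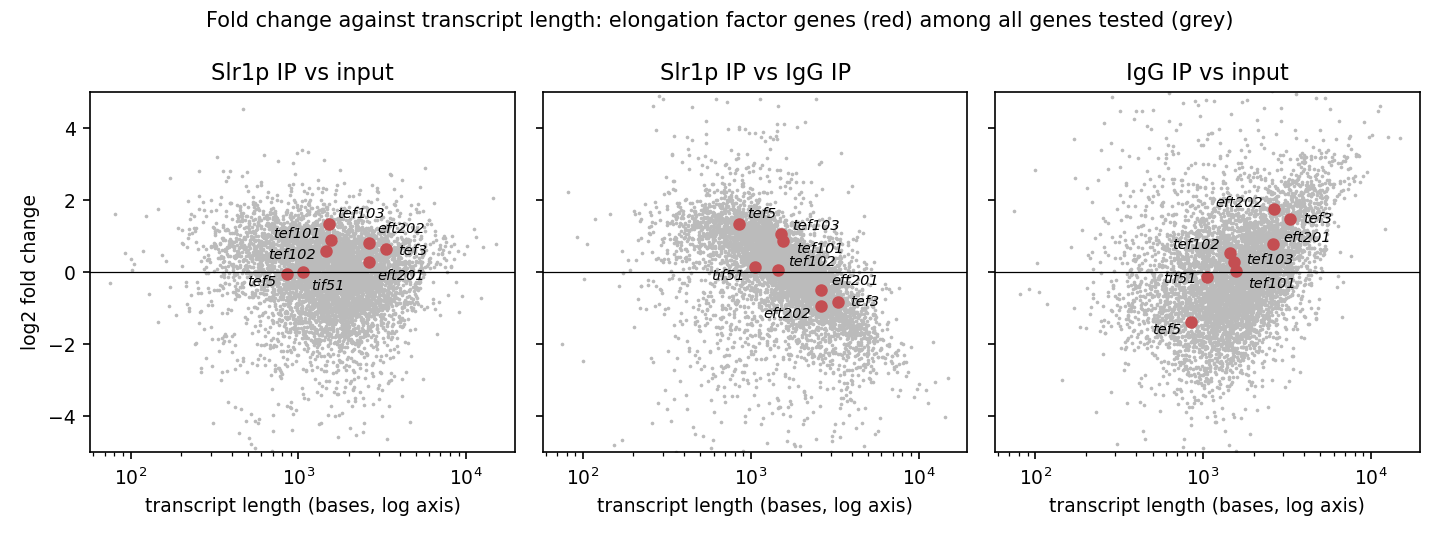
Log2 fold change (y axis) against annotated transcript length (x axis, bases, log axis) for the 8 elongation factor genes (red, named) and all other genes with a known length (grey) in each comparison. The y axis ends at 5 in both directions, which leaves out 163 genes in at least 1 comparison. In the middle and right panels the red points run roughly along the slope of the grey ones, from tef5 at the short end to tef3 at the long end. Some leave it. In the middle panel tif51 is at 0.14, below the longer tef101 and tef103 at 0.87 and 1.07. In the right panel tef102 is at 0.53, above the longer tef103 and tef101 at 0.28 and 0.028.

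Genes that work beside the 8 factors were counted from lists made from symbols and RefSeq descriptions. Of all genes tested, 35% were higher and 34.2% lower than input, and 34% higher and 32.3% lower than IgG. The modification enzymes of EF-2 and eIF5A, which make diphthamide and hypusine, had 5 of 7 members higher in Slr1p IP than in input and 1 lower (median log2 ratio 0.60), and 6 higher and 1 lower against IgG (0.44). Against IgG the higher members were 3 with the trend over length and GC content taken out, and 2 without either Slr1p replicate or with library totals. The highest by mean CPM over all 5 libraries were dph5, the diphthine synthase, at 134 ± 11.4 CPM in input, 277 ± 18.6 in Slr1p IP (SD, n = 2 each) and 203 in IgG, and mmd1, the deoxyhypusine hydroxylase, at 118 ± 6.30, 222 ± 1.18 and 166. Both rose against input, dph5 by 1.05 (SE 0.13, edgeR adjusted p = 2.25e-06) and mmd1 by 0.91 (SE 0.12, adjusted p = 5.27e-06). Against IgG they were at 0.45 and 0.42 (adjusted p = 0.0198 and 0.0205). Both calls against IgG were lost without either Slr1p replicate and with the trend with length and GC content taken out, where dph5 was at -0.13 and mmd1 at 0.13. The highest mean in input was that of dph3, at 143 ± 37.2 CPM, named after its values were seen, and it was lower in Slr1p IP than in input (-0.63, SE 0.16, adjusted p = 0.00204).

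The remaining cytosolic elongation genes were tif512 and SPAC29A4.02c, for the EF-1 gamma subunit that partners EF-1 beta. EF-1 gamma was at 1907 ± 238 CPM in input, 2677 ± 123 in Slr1p IP and 2495 in IgG. Its log2 ratio was 0.49 against input (SE 0.20, edgeR adjusted p = 0.0384), lost without Slr1p replicate 1 (0.51, adjusted p = 0.215), Slr1p replicate 2 (0.43, adjusted p = 0.306) or input replicate 1 (0.36, adjusted p = 0.140), and 0.10 against IgG (adjusted p = 0.725). For tif512 it was 0.20 against input (adjusted p = 0.445) and 1.58 against IgG (SE 0.31, adjusted p = 3.19e-04).

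The other lists can be read against the same shares of all genes, 35% higher and 34.2% lower than input and 34% higher and 32.3% lower than IgG. Of the 4 mitochondrial elongation factor genes, 2 were higher and 2 lower in Slr1p IP than in input (median log2 ratio 0.015), and 0 were higher and 3 lower against IgG (-1.75), with 0 higher also at an unadjusted p under 0.05 and by DESeq2. In that list mef1, the mitochondrial translocase, was at 50.2 ± 4.78 CPM in input, 100.5 ± 2.45 in Slr1p IP and 502 in IgG, and tuf1, the mitochondrial EF-Tu, at 215 ± 0.300, 174 ± 1.56 and 395. Of the 6 release and ribosome rescue factor genes, 1 was higher and 2 lower than in input (-0.28), and 2 were higher and 2 lower against IgG (0.052). Its highest members by mean CPM over all 5 libraries were rli1, the ribosome recycling ATPase, at -0.81 against input (SE 0.14, edgeR adjusted p = 1.12e-04) and sup35, the release factor eRF3, at 0.18 (adjusted p = 0.228). In input erf1, for the release factor eRF1 and named after its values were seen, was above sup35 in mean, at 409 ± 48.7 against 397 CPM, and it was at -0.59 against input (SE 0.13, adjusted p = 8.58e-04). The aminoacyl-tRNA ligase list held 36 genes, among them the synthetase cofactor asc1, and does not separate cytosolic from mitochondrial enzymes. The cytosolic ligases supply the charged tRNA that EF-1 alpha carries. Of the 36, 11 were higher and 3 lower against input (0.12), and 2 higher and 21 lower against IgG (-0.55). Among these irs1, for isoleucine, was at 0.77 against input (adjusted p = 4.97e-04) and -1.34 against IgG (adjusted p = 1.54e-05), and krs1, for lysine, at -0.091 and 0.023 (adjusted p = 0.617 and 0.921). With the trend over length and GC content taken out, the ligases had 7 higher and 12 lower against IgG, the release and rescue factors 4 and 2, and the mitochondrial factors 0 and 4. Against input, 22 ligases were then higher, and without either Slr1p replicate fewer were higher than in the main fit. The shares of all genes called in these fits are not given here.

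For each factor the 3 genes with the nearest profile were found by Euclidean distance of log2 CPM, centred on each gene's mean, over the 5 libraries and among 1255 genes of at least 100 CPM in input. Nearest to tef103 were rps1002, for a ribosomal protein of the small subunit, snz1 and egd2, at distances of 0.26 to 0.34. Nearest to tef101 were aru1, the arginase, cpn1 and rpl1602, a ribosomal protein of the large subunit (0.081 to 0.22). For tef102 they were pabp, the poly(A)-binding protein, ssa2 and EF-1 gamma (0.15 to 0.20). The genes nearest to tef5 were all of 765 to 919 bases, like tef5 short transcripts: cox4, spi1 and cox5 (0.086 to 0.13). For eft202 they were pma1, pdr16 and elf1, of 3448 to 4470 bases (0.20 to 0.28), and for eft201 gdh1, nop9 and SPCC965.13_1 (0.13 to 0.28). The nearest to tef3 were asc1, idp1 and SPAP27G11.12, of 1545, 1597 and 3228 bases (0.12 to 0.20). Those nearest to tif51 were pro1, npt1 and SPBC543.02c, of 1733 to 1985 bases (0.060 to 0.11). Near profiles thus did not always belong to transcripts of like length. Transcripts of tif51 and tef3 have 1057 and 3307 bases, and rps1002 beside tef103 has 494 and pabp beside tef102 has 2436. Apart from SPAC29A4.02c, none of these 24 neighbours was itself an elongation factor gene, and none of the 8 was among the 3 nearest to another of the 8.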

How the data were processed

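Counts per gene were used as deposited by the authors, with 1 file of whole-number raw counts per library, 6727 genes in each and no summary lines. Per the labels' protocols, libraries were made with a directional NEBNext Ultra II kit and read as pairs of 50 bases. Tools named in the submitters' processing notes, without their role, were STAR 2.6.0c, HTSeq 0.6.1p2, Trim Galore, FastQC 0.11.5 and bcl2fastq 2.20. For the genome build, the strand setting and reads with several alignments, the sources used here give nothing. Groups came from the sample titles, which number the input and Slr1p libraries as biological replicates. The libraries of each pair differed by more than sampling noise (chi-square per degree of freedom 194 for input over 6362 genes and 44.4 for Slr1p IP over 6377), so each library counted as a sample.

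The counts were tested with edgeR 4.0.16 in R 4.3.3 by the quasi-likelihood test, two-sided, with TMM scaling, the default filter by group (6376 genes kept, 351 removed) and 1 mean per group, fitted to all 5 libraries. The fit had 2 residual degrees of freedom and 13.5 prior ones, and the unreplicated IgG library was given the spread of the others. Benjamini-Hochberg adjustment ran over all genes tested, with genes under 0.05 called. Of the gene identifiers, 6534 matched RefSeq's annotation of ASM294v3 and 193 did not. Coordinates and sequences are RefSeq's and may not be of the authors' build. The script was tested on simulated data. DESeq2 1.42.0, other scalings, filters and trend corrections were tried as alternatives. The 8 genes, the lists beside them and the alternatives were chosen with earlier results of these data known. All 8 were named, with slr1, the 2 genes of each list with the highest mean CPM over all 5 libraries and the 3 nearest profiles per gene. The aminoacyl-tRNA ligase list does not separate cytosolic from mitochondrial enzymes.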

Additional observations from a re-analysis of the deposited data

How the results depend on the processing

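Over the 8 genes in 3 comparisons there were 256 alternative values. Of these, 203 kept their direction and side of the threshold, 24 lost and 11 gained a call with the same sign, and 18 changed sign, with or without a change of call. Below, all values are log2 fold changes unless named otherwise, and the cause of a change was not tested. Each fit without 1 library rests on 1 residual degree of freedom, and a group left with 1 library was assumed to vary like the others. The shares of all genes called in the alternative fits are not given, so counts of the 8 in them lack that background.

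Leaving out each replicated library in turn gave 1 to 5 of the 8 genes higher than input, 1 to 3 higher than IgG and 0 to 3 lower than IgG. The EF-1 alpha sum ranged from 0.90 to 1.25 against input and 0.69 to 0.92 against IgG, and the EF-2 sum from 0.47 to 0.72 and -0.95 to -0.70. Values near 0 changed sign: tef5 (-0.24 to 0.17) and tif51 (-0.026 to 0.048) against input, tef102 (-0.091 to 0.17) and krs1 (-0.036 to 0.038) against IgG, and tef101 in IgG against input (-0.14 to 0.23). With the replicate block, Slr1p IP against input had 4 of the 8 higher, and tef3 was no longer called (0.66, adjusted p = 0.103). The deviations of same-numbered libraries did not correlate (r = -0.048 over 6376 genes), so the numbers were not taken to pair the samples.

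By DESeq2, tif51 was at -0.0037 against input and krs1 at -0.0059 against IgG. With library totals in place of TMM, the median of all genes moved from 0.072 to -0.047 against IgG and from -0.064 to 0.056 in IgG against input. There, 5 of the 8 were higher in IgG than in input, with the EF-1 alpha sum called at 0.35 (adjusted p = 0.0462). Against IgG, tef102 was at -0.058, SPAC29A4.02c at -0.020, sup35 at -0.014 and krs1 at -0.098, and krs1 was at 0.0051 in IgG against input. Without the expression filter rli1 was at 0.0066 against IgG. With nuclear protein-coding genes only, tef5 was at 0.013 against input, rli1 at 0.036 against IgG and the EF-1 alpha sum at 0.87 against IgG, not called (adjusted p = 0.0563).

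With the trend over length and GC content taken out, 0 of the 8 were lower than IgG. Against IgG, eft201 was at 0.31, tef3 at 0.37, tif51 at -0.36, the EF-2 sum at 0.0092, SPAC29A4.02c at -0.054, dph5 at -0.13 and rli1 at 0.42. Against input krs1 was at 0.19. In IgG against input sup35 was at -0.35, and tif51 was called at 0.40. With abundance in the trend too, 1 of the 8 was lower than input (tef5) and 1 lower than IgG (tif51, at -0.93). Against IgG, tef102 was at -0.0025, eft201 at 0.28, the EF-1 alpha sum at 0.11, SPAC29A4.02c at -0.55, dph5 at -0.21, mmd1 at -0.069 and rli1 at 0.073. Against input, tif51 was at -0.087, tif512 at -0.12 and krs1 at 0.16. In IgG against input 5 of the 8 were higher, among them tif51, called at 0.85. The EF-1 alpha sum was called at 0.66 there, and sup35 was at -0.12 and krs1 at 0.050.

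Input levels in CPM per kb of unique positions were 5542 for tef101, 3933 for tef102, 8326 for tef103, 1298 for eft201, 1750.2 for eft202 and 1529 for tif51. By start positions of unique 200-base fragments, a measure chosen after seeing the data, they were 4172, 2958, 5883, 789.5, 1079 and 1797, with tef5 at 6419. Weighted by unique positions, the mean shares in input, Slr1p IP and IgG were 31.1%, 27.7% and 26.4% for tef101, 22.1%, 15.9% and 26.6% for tef102, 46.8%, 56.4% and 47.1% for tef103, and 57.4%, 65.8% and 72.5% for eft202. Each of the 8 genes had at least 11886 counts in every library, so counting error was small beside the spread between libraries.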
